A study of Mus musculus with 6 samples.

Results

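The comparison described here set liver tumours of Fah mice against inflamed liver of FCR mice that went through the same NTBC regimens. Its members were chosen by sample title: 2 arrays labelled tumour (Fah_off and Fah_2xoff/on) and 2 labelled inflamed liver (FCR_off and FCR_2xoff/on), 4 of the 6 arrays of the study. The tumours came from mice with the genotype Fah_del_tm1Mgo. The inflamed livers came from mice that carried, beside the same Fah deletion, Rag2_del_tm1Fwa and a deletion of the common gamma chain (tm1Wjl). All mice had the strain background BL6, and all lacked Fah, so the Fah deletion is shared by both sides. NTBC was supplied in drinking water at 7.5 µg/ml. The regimen off meant courses of NTBC withdrawal and resupply, and 2xoff/on meant cycling between withdrawal and supply, and the labels do not say in which phase each liver was taken. The remaining 2 arrays, healthy liver of a Fah mouse and normal liver of an FCR mouse, both on continuous NTBC, served here as a view of the genotypes without withdrawal (1 array each).

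Fumarylacetoacetate hydrolase, encoded by Fah, performs the last step of tyrosine breakdown. Without it reactive intermediates accumulate in hepatocytes, and NTBC prevents this by blocking the pathway further upstream. Rag2 is required to assemble the antigen receptors of T and B cells, and Il2rg encodes the common gamma chain, through which several interleukins act on lymphocytes and NK cells. Livers of Fah mice and of FCR mice on intermittent NTBC therefore share the metabolic defect and differ in whether lymphocytes can take part. The extent of injury on each side was not measured. The Fah samples were labelled tumour and the FCR samples inflamed liver, so genotype, lymphocytes and tumour tissue cannot be told apart in this comparison. The arrays measured whole tissue, in which fewer cells of a type and less RNA per cell cannot be told apart.

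Each array gave 43379 spots. On the tumour arrays 71.8% and 74.5% of spots were well above background, against 68.1% and 69.8% on the inflamed arrays. Both off arrays lay on slide 1 and both 2xoff/on arrays on slide 2, so regimen and slide cannot be told apart. Nothing in the labels gives separate animals to the arrays of a group, and the p-values therefore measure only the spread between these samples. Within a group that spread is the gap between an off and a 2xoff/on array, so it takes in regimen and slide. The main fit did not pair the arrays by slide. Before scaling, the 75th percentile signal was 811 and 890 on the tumour arrays (off and 2xoff/on). On the inflamed arrays it was 363 and 722. The 2 inflamed arrays lay further apart than the 2 tumour arrays. The median absolute gap between off and 2xoff/on over all genes was 0.47 in tumour and 0.75 in inflamed FCR liver. Levels are log2 signals with the 75th percentile of each array set to 0. Differences are log2 differences, tumour minus inflamed FCR liver.

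The deleted genes were examined first. Il2rg, the common gamma chain, was at -1.94 and -1.98 in tumour (off and 2xoff/on), against -7.60 and -7.74 in inflamed FCR liver, where neither array was well above background. It was thus at least 14.0-fold higher in tumour (limma, adjusted p = 0.0208). Rag2 stayed dim on each of the 4 arrays, not well above background, and was not tested. Fah gave signal on all 4 arrays, at -2.27 and -1.95 in tumour and at -2.85 and -0.97 in inflamed FCR liver. The position of its probe relative to the deletion is not known, so this signal checks nothing. A fold marked "at least" is a bound. It sets the mean of the brighter group against a floor on each dim array, which is the signal of the gene there or, where higher, the weakest signal that any probe well above background gave on that array. Each bound holds for this processing only, and a p-value beside it tests the difference without the floor.

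Of 15382 genes tested, 10 were higher in tumour (0.065% of genes) and 22 were lower (0.143%) by limma with Benjamini-Hochberg adjustment at 0.05. At an unadjusted p under 0.05 there were 645 higher and 767 lower genes. The count depended on single arrays. Without the off tumour array 18 genes were higher and 32 lower, and without the 2xoff/on tumour array 18 and 39. Without the off array of inflamed FCR liver the counts were 41 and 60, and without its 2xoff/on array 362 and 469. The 4 fits kept 24 to 32 of the 32 genes, and none of the 32 changed sign in any of them. Both tumour arrays lay above both inflamed arrays for 2468 genes (16%), and below both for 3679 genes (23.9%). The counts of list members above and below given in the following paragraphs are to be read against these shares. Over all tested genes the median difference was -0.13, within off -0.29 and within 2xoff/on -0.03, and with quantile normalization the overall median was 0.01.

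**Figure D1:**
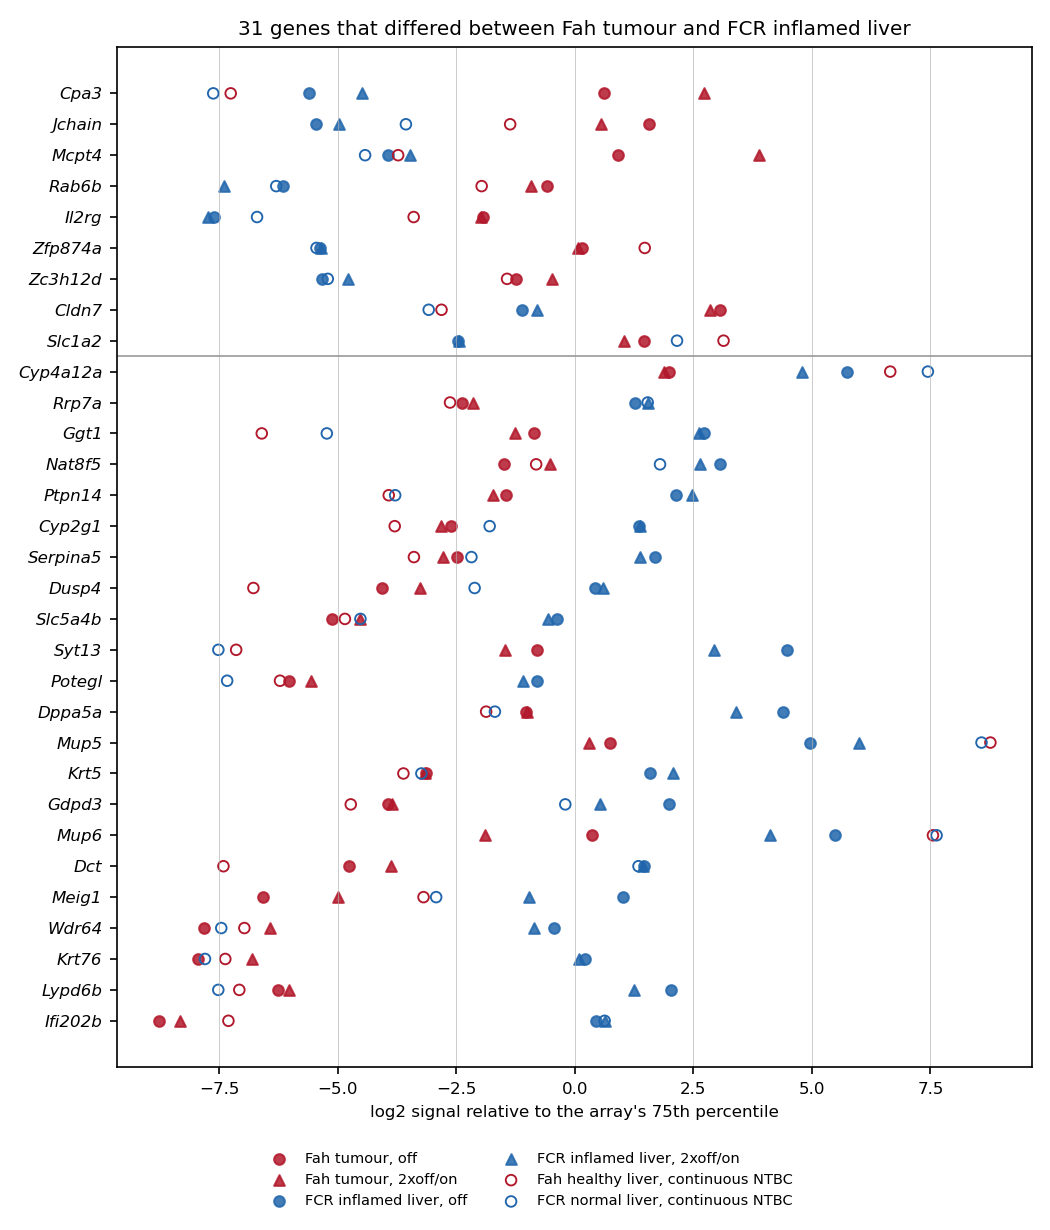
Level of 31 of the 32 genes past the threshold on every array (x axis, log2 signal with the array's 75th percentile at 0), with genes ordered by their difference (y axis). Filled red symbols are tumour, filled blue symbols inflamed FCR liver, circles off and triangles 2xoff/on, and open circles are the 2 livers on continuous NTBC. The red and blue filled symbols do not overlap for any of the 31 genes, and 9 genes above the line were higher in tumour.

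Genes of mast cells, tissue granulocytes that store proteases and respond through the IgE receptor, were led by Cpa3 and Mcpt4, which rose in tumour. Cpa3, a carboxypeptidase of mast cell granules, was at 0.63 and 2.72 in tumour (off and 2xoff/on), against -5.60 and -4.49 in inflamed FCR liver. It rose by 6.72 ± 0.83 (SE, limma, adjusted p = 0.0255). Mcpt4, a chymase of connective tissue mast cells, was at 0.92 and 3.88 in tumour, against -3.94 and -3.47 in inflamed FCR liver, and rose by 6.10 ± 0.89 (adjusted p = 0.0427). In both genes each tumour array exceeded each inflamed array, and the 2xoff/on tumour lay above the off tumour. The related chymases Cma1 and Cma2 differed by 5.0 ± 0.82 and 5.56 ± 0.90 without passing (adjusted p = 0.0636 and 0.0606). Chymase genes are close relatives, and whether their probes share signal was not tested.

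Of 13 mast cell and basophil genes tested, 2 rose and 11 were short of the threshold, and the median difference was 3.51. Both tumour arrays lay above both inflamed arrays for 10 of the 13 and below for 1, Hdc, the histamine-forming enzyme (-0.87, named after its value was seen). The median was 2.19 within off and 4.31 within 2xoff/on. Fcer1a, the IgE-binding chain of the IgE receptor, differed by 3.25, Tpsb2, a tryptase, by 3.51, and Il1rl1, the receptor for interleukin 33, by 3.91; these were named after their values were seen. Mrgprb2, a mast cell receptor for basic secretagogues, was at -3.63 and -2.84 in tumour and not well above background in inflamed FCR liver, at least 5.77-fold higher without passing (adjusted p = 0.0968). On continuous NTBC the list hardly differed between the genotypes, with a median of 0.02 for healthy Fah minus normal FCR liver, and Cpa3 was not well above background in either. The size of the list's median hung on the processing. It was 0.64 with normexp background correction, 1.61 with the authors' values, 1.88 with values floored at a common level and 2.23 without the 2xoff/on tumour array. With normexp mitosis genes stood higher (1.42), and with the authors' values mitosis and class II genes did (both 1.62). Of the 13 genes 4 were dim on both inflamed arrays and were tested through the tumour or continuous NTBC arrays. Over genes well above background on all 4 arrays the median was 3.38.

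Among lymphocyte genes, those of the B cell, T cell and cytotoxic lists lay mostly higher in tumour. The 6 Gimap GTPases of lymphocytes had 2 above and 1 below, with a median of -0.09. The 7 common gamma chain receptors had 3 above and 1 below, with a median of 0.25. Beside Il2rg, 1 lymphocyte gene passed. Jchain, which joins IgA and IgM into polymers and is made by plasma cells, was at 1.57 and 0.56 in tumour, against -5.45 and -4.96 in inflamed FCR liver, and rose by 6.27 ± 0.61 (limma, adjusted p = 0.0115). It was also higher in healthy Fah than in normal FCR liver, at -1.36 against -3.56. The plasma cell list otherwise did not follow it: 1 of 11 genes rose, 10 did not pass, and the median was 0.33 (0.08 to 0.85 with each array left out in turn). Mzb1, a chaperone of antibody assembly, differed by 2.10 ± 0.63 (adjusted p = 0.303).

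Of 15 B cell genes none passed (limma), but 11 lay above in both tumour arrays and none below, with a median of 1.37. Among the 15 genes 2 were dim on both inflamed arrays and were tested through the tumour or continuous NTBC arrays. The list differed by as much on continuous NTBC (median 1.5 for healthy Fah minus normal FCR liver), and with normexp its median in tumour against inflamed FCR liver was 0.30. Ms4a1, the CD20 antigen, was at -2.38 and -3.38 in tumour and not well above background in inflamed FCR liver, at least 7.38-fold higher (adjusted p = 0.0669). Cd79a, the signalling chain of the B cell receptor, differed by 0.12, a value that turned its sign with normexp (-0.48) and was named after it was seen. Of 19 T cell genes none passed, and 12 lay above and 1 below in both tumour arrays, with a median of 0.83. Among the 19 genes 4 were dim on both inflamed arrays and were tested through the tumour or continuous NTBC arrays. Over T cell genes well above background on all 4 arrays the median was 0.76. On continuous NTBC the T cell median was 0.90, and with normexp the tumour median was 0.15. Cd8a, the coreceptor of cytotoxic T cells, was at -2.40 and -3.13 in tumour and not well above background in inflamed FCR liver, at least 8.01-fold higher (adjusted p = 0.0579), with probes from 1.80 to 4.68. Cd3e, part of the T cell receptor complex, showed no difference that passed (-0.33 ± 0.56, adjusted p = 0.911; 0.042 without the 2xoff/on array of inflamed FCR liver). Its level was -1.76 and -1.14 in tumour, against -1.49 and -0.75 in inflamed FCR liver. Cd3e, named after its values were seen, thus gave signal in mice that lack Rag2, and the source of that signal was not tested.

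Cytotoxic genes had a median of 2.09 over 15 tested, with 10 above and 2 below in both tumour arrays and none past the threshold. On continuous NTBC the list was already higher in healthy Fah than in normal FCR liver, by a median of 0.82. Gzma, a granzyme, was at -4.03 and -2.71 in tumour and not well above background in inflamed FCR liver, at least 5.26-fold higher (limma, adjusted p = 0.0805). Nkg7, a granule protein of NK and cytotoxic T cells, was at -1.32 and -0.76 in tumour, against -5.14 and -4.03 in inflamed FCR liver (3.54 ± 0.66, adjusted p = 0.0902). Eomes, a transcription factor of NK and memory T cells, lay the opposite way, at -5.93 and -3.97 in tumour and at -0.97 and -0.32 in inflamed FCR liver (-4.31 ± 0.81, adjusted p = 0.093). Without withdrawal Nkg7 was at -3.16 in Fah and -5.07 in FCR liver, and Gzma and Eomes were not well above background in either. The list rests on low signals, and its direction on the background correction: the median was -0.19 with normexp, 0.52 with values floored at a common level and 0.55 with the authors' values. Of the 15 genes 5 were dim on both inflamed arrays and were tested through the tumour or continuous NTBC arrays. Over the genes well above background on all 4 arrays the median was 1.13.

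Antigen presentation split by class. Class II molecules display peptides to CD4 T cells and are made by B cells, dendritic cells and macrophages. Of 11 class II genes none passed, and 9 lay above in both tumour arrays and none below, with a median of 1.77. Among the 11 genes 2 were dim on both inflamed arrays and were tested through the tumour or continuous NTBC arrays. Cd74, the invariant chain, was at 4.73 and 4.68 in tumour, against 1.86 and 2.29 in inflamed FCR liver (2.63 ± 0.46, limma, adjusted p = 0.0785). H2-Ab1, a class II beta chain, was at 4.64 and 4.68 in tumour, against 2.33 and 2.32 in inflamed FCR liver (2.34 ± 0.45, adjusted p = 0.0991). Ciita, the master activator of these genes, differed by 2.32 ± 0.71 (adjusted p = 0.312). The same list was already higher in healthy Fah than in normal FCR liver, by a median of 1.11. Class I genes, which nearly all cells use, had a median of -0.37 over 12 genes, with 6 below and none above; with quantile normalization that median was 0.04, and without the 2xoff/on tumour array -0.23. H2-K1 differed by -0.94 ± 0.47 and B2m by -0.84 ± 0.42, neither past the threshold (adjusted p = 0.626 and 0.628), and the 3 probes of H2-K1 ranged from -0.94 to 0.43.

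**Figure D2:**
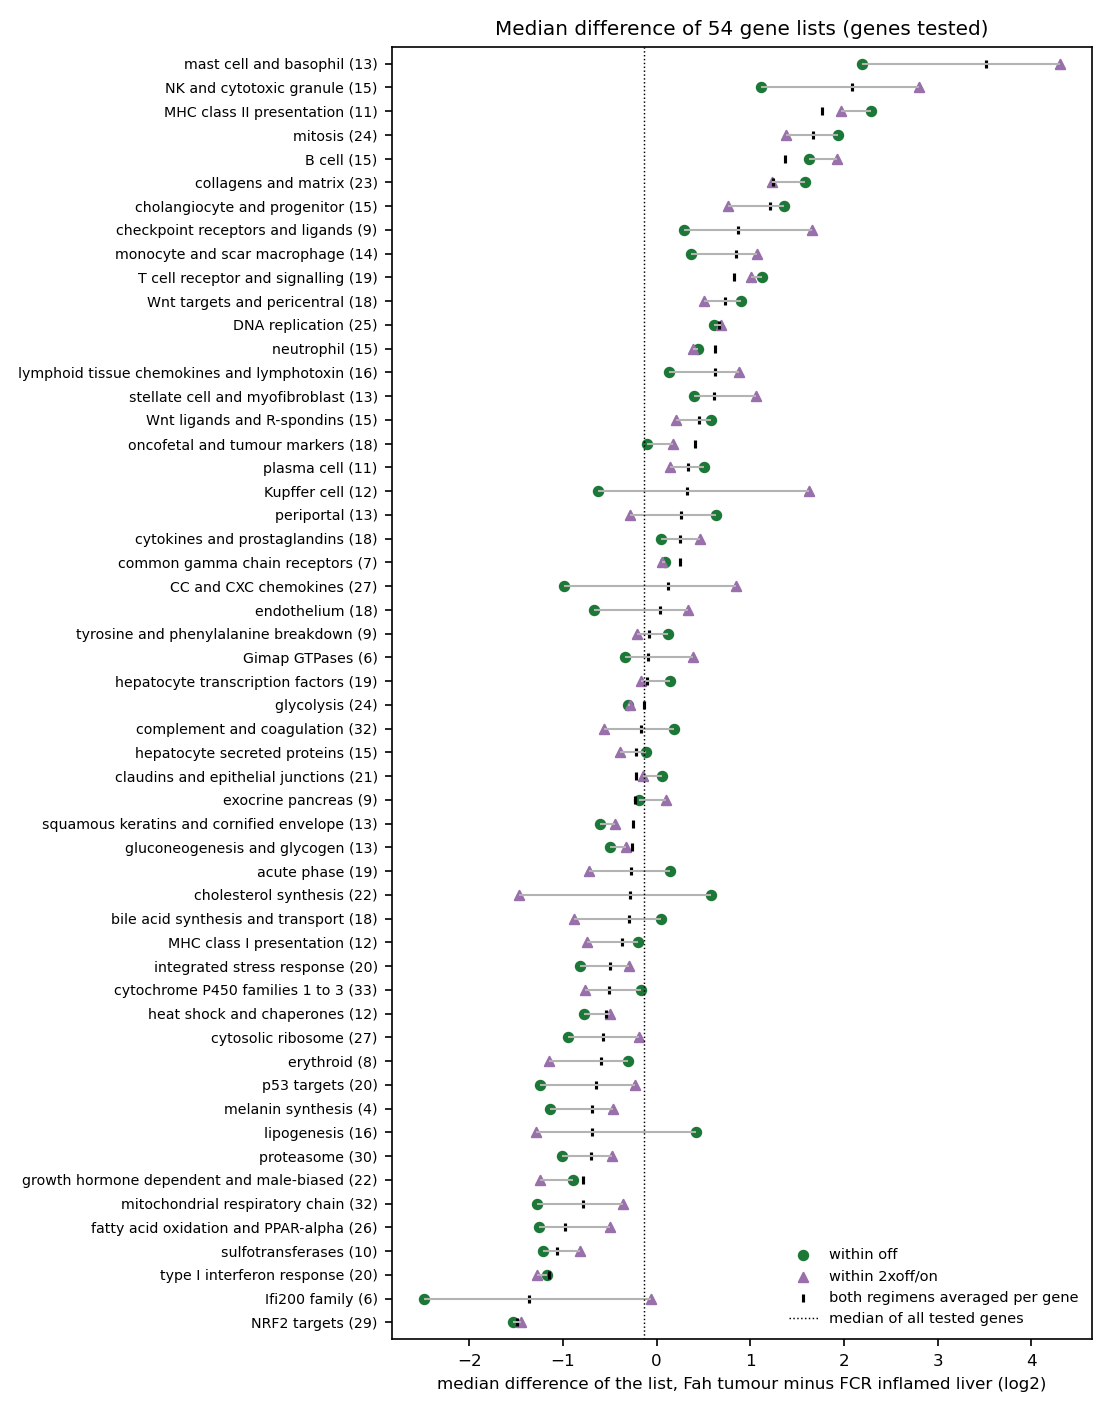
Median difference of 54 gene lists, Fah tumour minus FCR inflamed liver (x axis, log2), within off (circles), within 2xoff/on (triangles) and with both regimens averaged per gene (ticks); the number of tested genes follows each list's name. On this scaling the mast cell list stood at 3.51 and NRF2 targets at -1.49, against -0.13 for all tested genes (dotted line).

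Genes of ductal epithelium were mostly higher in tumour, but 1 listed with them fell. Cldn7, a tight junction protein of ductal epithelium, was at 3.07 and 2.86 in tumour, against -1.12 and -0.79 in inflamed FCR liver, and rose by 3.92 ± 0.51 (limma, adjusted p = 0.0296). It was at -2.81 in healthy Fah and -3.08 in normal FCR liver, so that both diseased groups lay above both continuous NTBC livers. Of 15 cholangiocyte and progenitor genes, a list without Cldn7, none rose and 1 fell. Of these genes 10 lay above and 1 below in both tumour arrays, and the median was 1.21. Krt19, a duct keratin, was at 1.56 and 1.36 in tumour, against 0.11 and -0.77 in inflamed FCR liver (1.79 ± 0.54, adjusted p = 0.309), and Epcam differed by 2.30 ± 0.75 (adjusted p = 0.356). The gene that fell was Ggt1: the gamma-glutamyl transferase that takes apart extracellular glutathione was at -0.87 and -1.27 in tumour, against 2.72 and 2.62 in inflamed FCR liver, and fell by 3.74 ± 0.53 (adjusted p = 0.039). The list of claudins and epithelial junctions, Cldn7 included, showed no common direction, with 5 of 21 above and 5 below.

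Genes of the pericentral zone, which hepatocytes next to the central vein express under Wnt signals, included 1 that rose. Slc1a2, a glutamate transporter of that zone, was at 1.47 and 1.03 in tumour, against -2.47 and -2.45 in inflamed FCR liver, and rose by 3.71 ± 0.49 (limma, adjusted p = 0.035); its 4 probes ranged from 2.16 to 4.93. On continuous NTBC it was at 3.14 in Fah and 2.16 in FCR liver, above both diseased groups. Oat, ornithine aminotransferase, was at 6.04 and 5.19 in tumour, against 2.53 and 3.15 in inflamed FCR liver (2.77 ± 0.50, adjusted p = 0.0835). Lgr5, a receptor for R-spondins, differed by 1.67 ± 0.59 (adjusted p = 0.408). Slc1a4, a neutral amino acid transporter, lay the other way, at 1.86 and 1.69 in tumour and at 3.41 and 3.67 in inflamed FCR liver (-1.77 ± 0.48, adjusted p = 0.248). Of 18 pericentral genes 1 rose, 9 lay above and 2 below in both tumour arrays, and the median was 0.73. The ligand Wnt10a was at 0.54 and 0.47 in tumour, against -3.26 and -4.49 in inflamed FCR liver (4.38 ± 0.68, adjusted p = 0.0537), and was not well above background on either continuous NTBC array. Its list of Wnt ligands and R-spondins, which also holds Dkk genes, did not share that size. Of 15 genes tested none passed, 7 lay above and 1 below (Dkk2, -1.99). The median was 0.45, or -0.07 with normexp background correction.

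Mitosis genes were higher on both tumour arrays almost throughout. None of the 24 passed (limma), but 23 lay above in both tumour arrays and none below, with a median of 1.67. Within off the median was 1.94 and within 2xoff/on 1.38, and without the off array of inflamed FCR liver it was 1.12. Top2a, the topoisomerase that untangles chromosomes, was at 0.06 and 0.63 in tumour, against -4.44 and -1.12 in inflamed FCR liver (3.13 ± 0.98, adjusted p = 0.325). Cdkn3, a phosphatase of cyclin-dependent kinases, was at 2.46 and 3.66 in tumour, against -0.90 and 1.21 in inflamed FCR liver (2.91 ± 0.76, adjusted p = 0.231). In these genes the off array of inflamed FCR liver was the lowest of the 4. The single negative member, Bub1, differed by -0.21 with probes from -0.21 to 1.61, and by 0.70 with its probes averaged (named after its value was seen). DNA replication genes differed less, with 15 of 25 above and 1 below and a median of 0.66.

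Many mitosis genes carry in their promoters a cell cycle homology region, the element through which the DREAM complex silences them in resting cells. Its letters TTTGAA were searched on both strands in 250 bases before to 50 after each RefSeq start (GRCm38.p6). Of the 24 tested genes 20 matched a promoter, and 14 of these (70%) held the motif, against 20.2% of the 27025 genes in the table. The list was made of known mitosis genes, so this share says nothing on why they differed here. The promoters of the 2 mitosis genes with a motif and the largest difference are shown because these genes differed most, with matches in capitals; a match in the opposite orientation reads its reverse complement. Top2a lies at chr11:99024140-99024439, minus strand and Cdkn3 at chr14:46760291-46760590, plus strand.
Top2a: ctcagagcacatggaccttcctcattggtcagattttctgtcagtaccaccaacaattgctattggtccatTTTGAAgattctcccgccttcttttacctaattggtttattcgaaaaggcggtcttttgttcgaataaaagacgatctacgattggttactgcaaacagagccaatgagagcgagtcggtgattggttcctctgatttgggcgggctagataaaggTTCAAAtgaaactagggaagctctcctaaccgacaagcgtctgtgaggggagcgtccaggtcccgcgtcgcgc
Cdkn3: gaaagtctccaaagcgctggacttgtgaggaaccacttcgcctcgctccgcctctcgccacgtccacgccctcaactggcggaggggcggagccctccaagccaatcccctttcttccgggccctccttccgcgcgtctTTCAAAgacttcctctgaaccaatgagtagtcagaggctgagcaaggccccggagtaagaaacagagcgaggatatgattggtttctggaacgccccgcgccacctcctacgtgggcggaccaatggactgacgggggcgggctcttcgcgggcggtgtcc

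Matrix genes lay higher in tumour too. All 23 collagen and matrix genes had positive differences, with a median of 1.24, 17 above in both tumour arrays and none past the threshold (limma). Col1a1, the main fibrillar collagen, was at 4.65 and 2.80 in tumour, against 2.79 and 0.08 in inflamed FCR liver (2.29 ± 0.91, adjusted p = 0.488). In this gene both off arrays exceeded both 2xoff/on arrays on their own side, and the off inflamed and cycled tumour arrays were level. Col6a1 differed by 2.20 ± 0.61 (adjusted p = 0.257) and the gelatinase Mmp2 by 2.17 ± 0.72 (adjusted p = 0.367). Stellate cell genes, of the cells that make this matrix in liver, had a median of 0.62 over 13, with 4 above and none below; the median was 0.21 without the 2xoff/on array of inflamed FCR liver and 1.12 without its off array.

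A part of the called genes already stood apart on continuous NTBC. Among the 32 genes, 12 differed between healthy Fah and normal FCR liver by 2 or more in the same direction (5 higher, 7 lower), 17 differed by less than 1 (5 higher, 12 lower), and 3 lay between. These 2 livers are single arrays, so their difference has no test. Ifi202b, an interferon-inducible protein of the Ifi200 family, was not well above background in any Fah sample, at -8.78 and -8.32 in tumour and -7.30 in healthy liver. It was at 0.44 and 0.63 in inflamed and 0.63 in normal FCR liver, and was at least 120-fold lower in tumour (limma, adjusted p = 0.00289). Its difference was -9.09, or -4.30 with normexp background correction and -4.88 with the authors' values. Dct, an enzyme of melanin synthesis, was at -4.76 and -3.87 in tumour, against 1.46 and 1.43 in inflamed FCR liver, and fell by 5.76 ± 0.58 (adjusted p = 0.0115). In normal FCR liver it was at 1.34, and in healthy Fah liver it was not well above background. None of the other 3 melanin genes tested passed, among them Slc45a2 at -0.89.

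Zfp874a, a zinc finger protein, was at 0.14 and 0.07 in tumour, against -5.37 and -5.36 in inflamed FCR liver, and rose by 5.47 ± 0.56 (limma, adjusted p = 0.0115). Healthy Fah liver stood above the tumours at 1.48 and normal FCR liver at -5.45. Rab6b, a small GTPase of vesicle transport, was at -0.57 and -0.93 in tumour, at least 32.3-fold higher than in inflamed FCR liver (adjusted p = 0.02), and at -1.96 in healthy Fah liver. Its difference was 6.03, or 2.26 with normexp background correction. Zc3h12d, an RNA-binding ribonuclease of immune cells, rose by 4.20 ± 0.62 (adjusted p = 0.0453), against a continuous NTBC difference of 3.78. In these 3 genes the FCR samples were low or not well above background in every regimen.

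The lower genes that stood apart on continuous NTBC were Gdpd3, Dusp4, Rrp7a, Nat8f5 and Cyp2g1 beside Ifi202b and Dct. Gdpd3, a lysophospholipase D, was at -3.94 and -3.86 in tumour, against 1.99 and 0.52 in inflamed FCR liver, and fell by 5.15 ± 0.64 (limma, adjusted p = 0.0255). Its levels in healthy Fah and normal FCR liver were -4.72 and -0.20. Dusp4, a phosphatase that inactivates MAP kinases, fell by 4.17 ± 0.60 (adjusted p = 0.039) and Rrp7a, a ribosome assembly factor, by 3.66 ± 0.51 (adjusted p = 0.0363). For Rrp7a the 4 arrays of withdrawal and the 2 of continuous NTBC formed the same 2 levels, with Fah samples between -2.63 and -2.14 and FCR samples between 1.27 and 1.54. In a fit of genotype over all 3 regimens with regimen as a block, 11 of the 32 genes passed. These 11 are the 12 that stood apart on continuous NTBC, which this fit takes in, less Jchain (limma, adjusted p = 0.0644).

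**Figure D3:**
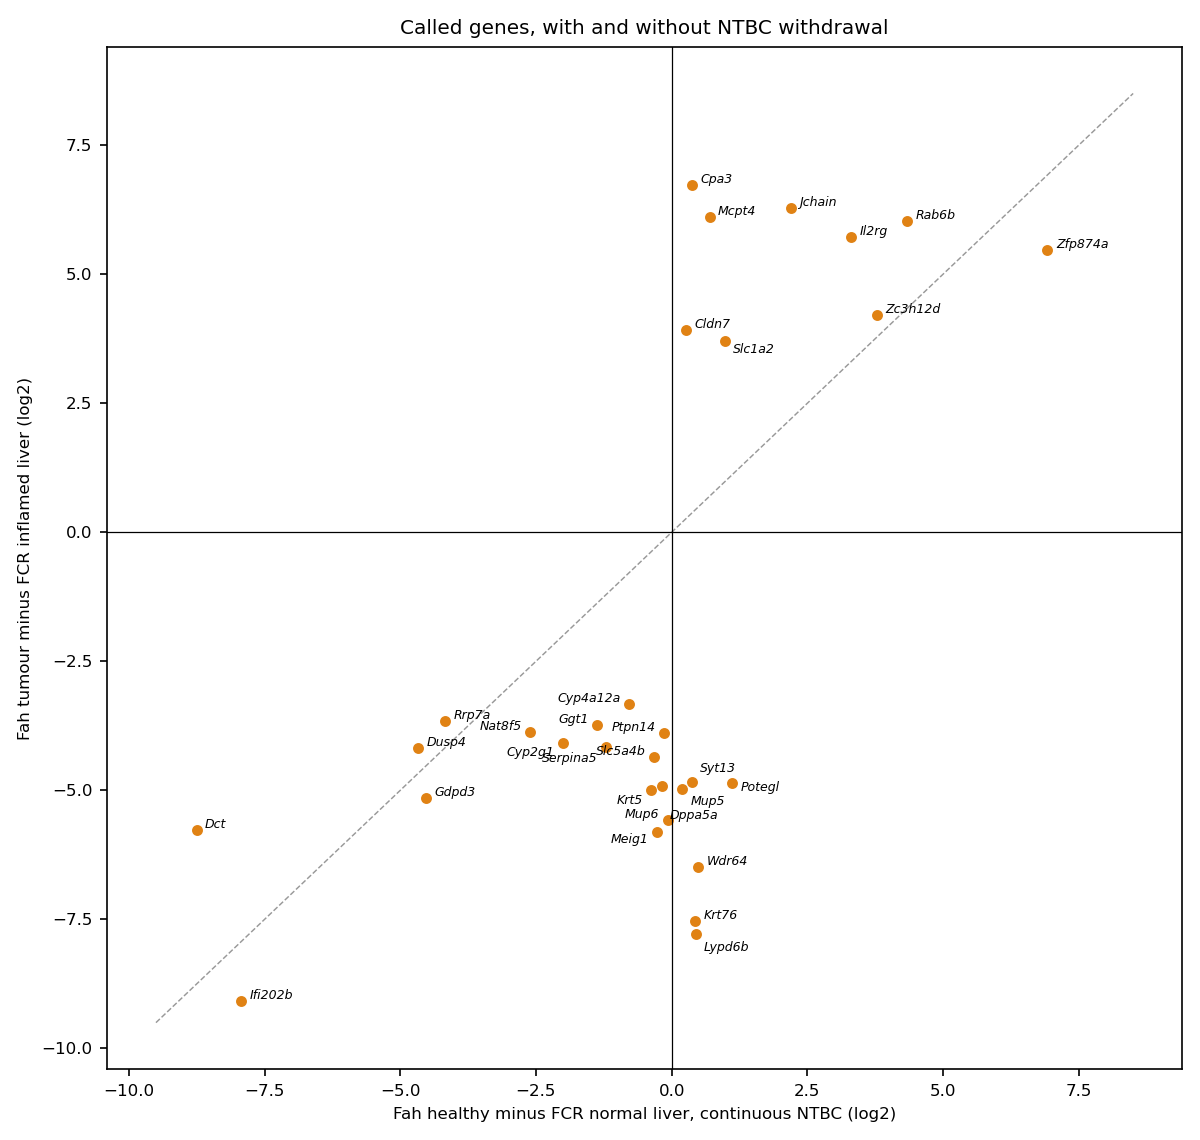
Difference of 31 of the 32 called genes between Fah tumour and FCR inflamed liver (y axis, log2) against its difference between healthy Fah and normal FCR liver on continuous NTBC (x axis, log2, 1 array each). Points near the dashed line of equality (Ifi202b, Zc3h12d, Rrp7a) differed as much without withdrawal; points near the vertical line (Cpa3, Lypd6b, Krt76, Mup6) differed by less than 1 on continuous NTBC.

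Among the other lower genes, 3 were well above background in inflamed FCR liver alone. Lypd6b, a GPI-anchored protein of the Ly6 family, was at -6.27 and -6.03 in tumour, where neither array was well above background, against 2.03 and 1.25 in inflamed FCR liver. It was 221-fold lower in tumour on this scaling (limma, adjusted p = 0.00744). Both dim tumour signals lay above the floor, so this fold is the plain difference of -7.79. With normexp background correction the difference was -4.96. Krt76, a keratin of the oral epithelium, was at least 92.2-fold lower (adjusted p = 0.0115): it was at 0.22 and 0.09 in inflamed FCR liver and well above background on none of the other 4 arrays. Wdr64 was at least 53.1-fold lower (adjusted p = 0.0208), with levels of -0.43 and -0.86 in inflamed FCR liver.

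Krt5, the keratin of basal squamous cells, was at -3.14 and -3.16 in tumour, against 1.59 and 2.07 in inflamed FCR liver, and fell by 4.98 ± 0.54 (limma, adjusted p = 0.0153). Healthy Fah and normal FCR liver stood at -3.61 and -3.23, level with the tumours. Krt5 and Krt76 lie 9 places apart in the keratin cluster of chromosome 15, the only called genes within 20 places of each other. No other keratin around them passed. Krt79, 2 places beyond Krt76, differed by -2.72 (adjusted p = 0.22), Krt71, next to Krt5, by -0.86 and Krt6b by -1.04. The hepatocyte keratins Krt8 and Krt18 in the same cluster differed by -0.49 and -0.53, and by 0.28 and 0.23 with quantile normalization. These neighbours were looked up after the values were seen. Squamous genes as a list had 2 falls among 13, 6 below and none above, and a median of -0.25 (0.10 without the off tumour array). Lor, loricrin of the cornified envelope, was at -1.67 and -0.87 in tumour, against 1.68 and 0.57 in inflamed FCR liver (-2.39 ± 0.59, adjusted p = 0.202).

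Dppa5a, an RNA-binding protein known from embryonic stem cells, was at -1.02 on both tumour arrays, against 4.38 and 3.39 in inflamed FCR liver, and fell by 4.91 ± 0.54 (limma, adjusted p = 0.0153). Syt13, a synaptotagmin, was at -0.79 and -1.46 in tumour, against 4.49 and 2.93 in inflamed FCR liver, and fell by 4.84 ± 0.67 (adjusted p = 0.0363); its 2 probes gave -4.84 and -1.45. Ptpn14, a phosphatase that restrains YAP, was at -1.45 and -1.73 in tumour, against 2.14 and 2.48 in inflamed FCR liver, and fell by 3.90 ± 0.53 (adjusted p = 0.0363). For Syt13 and Ptpn14 the tumours lay above both livers on continuous NTBC, and inflamed FCR liver above the tumours. Meig1, known from spermatogenesis, fell by 5.81 ± 0.84 (adjusted p = 0.0394), with 1 of the 2 tumour arrays well above background. Potegl, Slc5a4b, a member of the sodium-glucose transporter family, and Serpina5, the protein C inhibitor, fell by 4.85, 4.36 and 4.17 (adjusted p = 0.0363, 0.0363 and 0.0296). In RefSeq gene order the called gene nearest to a deleted gene was Slc1a2, 18 places from Rag2 on chromosome 2, followed by Syt13, 68 places from it; this was looked up after the values were seen.

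NRF2 targets, the genes of the antioxidant response, all differed in 1 direction between the group means. NRF2 is held in the cytosol by KEAP1 and enters the nucleus when electrophiles modify KEAP1; its targets make glutathione, NADPH and conjugating enzymes. All 29 tested targets were lower in tumour, 27 of them below in both tumour arrays, with a median of -1.49 and none past the threshold (limma). The median was -1.53 within off and -1.44 within 2xoff/on, while healthy Fah and normal FCR liver differed by -0.18. With quantile normalization the median was -0.93 and with the authors' values -1.05.

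Among the conjugating enzymes Gsta2, a glutathione transferase, was at 5.42 and 4.97 in tumour, against 8.63 and 7.81 in inflamed FCR liver (-3.03 ± 0.48, limma, adjusted p = 0.0585). Tumour levels were close to those of continuous NTBC, where Gsta2 was at 5.17 in Fah and 5.78 in FCR liver. G6pdx, which makes NADPH in the pentose phosphate pathway, was at 1.91 and 2.27 in tumour, against 4.79 and 5.13 in inflamed FCR liver (-2.87 ± 0.47, adjusted p = 0.0636); here the tumours lay above the livers on continuous NTBC, at 0.45 and 0.42. Slc7a11, which imports cystine for glutathione, was at 0.92 and -0.95 in tumour, against 4.34 and 2.51 in inflamed FCR liver (-3.44 ± 0.81, adjusted p = 0.173). Me1, malic enzyme, which makes NADPH, differed by -2.20 ± 0.47 (adjusted p = 0.135). The 2 targets whose groups overlapped were Gclm, the modifier subunit of glutathione synthesis (-0.88, or 0.23 without the 2xoff/on array of inflamed FCR liver), and Ftl1, ferritin light chain (-0.80), both named after their values were seen.

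The antioxidant response element, to which NRF2 binds with small MAF proteins, was searched by its core TGACNNNGC on both strands of the same promoter windows. Of the 29 tested targets 25 matched a promoter and 10 of these (40%) held the core, against 14% of all genes in the table. The list was made of known NRF2 targets, so this share says nothing on why they differed here. The 2 targets with a match and the largest difference are shown with the core in capitals. The core of G6pdx (chrX:74428831-74429130, minus strand) stands in the opposite orientation and that of Me1 (chr9:86695865-86696164, minus strand) in the orientation of the gene.
G6pdx: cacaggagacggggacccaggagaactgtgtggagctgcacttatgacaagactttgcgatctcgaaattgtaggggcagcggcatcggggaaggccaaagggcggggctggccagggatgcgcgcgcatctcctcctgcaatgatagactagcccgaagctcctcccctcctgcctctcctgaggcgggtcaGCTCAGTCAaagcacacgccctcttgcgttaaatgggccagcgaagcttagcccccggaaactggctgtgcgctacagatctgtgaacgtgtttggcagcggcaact
Me1: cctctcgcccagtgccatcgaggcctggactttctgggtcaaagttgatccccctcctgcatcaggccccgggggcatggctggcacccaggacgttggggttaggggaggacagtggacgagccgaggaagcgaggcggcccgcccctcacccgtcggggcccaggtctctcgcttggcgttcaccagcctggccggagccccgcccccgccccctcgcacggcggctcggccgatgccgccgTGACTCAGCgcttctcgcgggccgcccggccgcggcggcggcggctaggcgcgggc

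**Figure D4:**
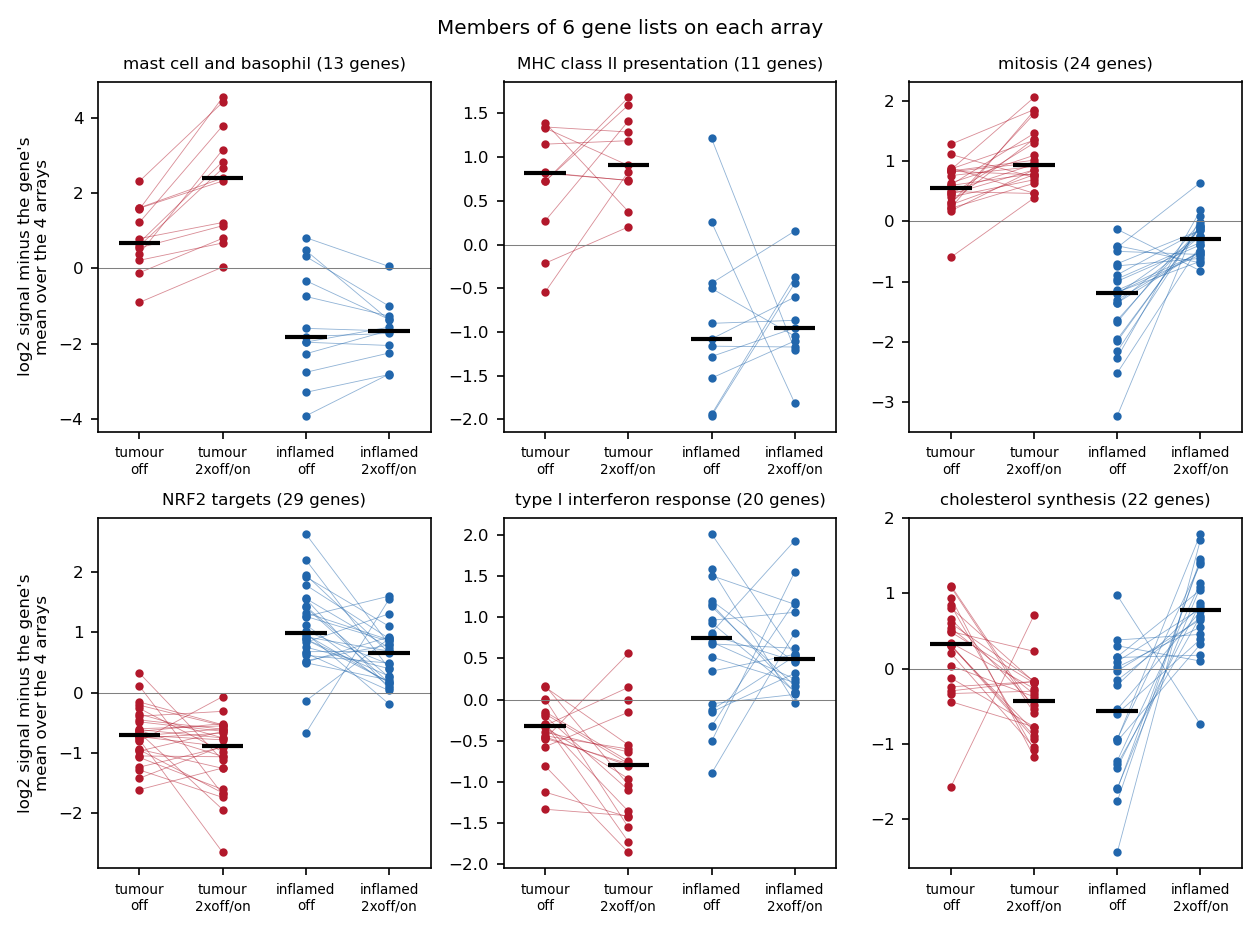
Each gene of 6 lists on the 4 arrays, as log2 signal minus the gene's own mean over the 4 arrays (y axis), with tumour in red and inflamed FCR liver in blue; lines join a gene's 2 arrays within a group and black bars are medians. Mast cell, class II and mitosis genes lie higher in tumour and NRF2 targets and interferon genes lower, while cholesterol genes have opposite differences in off (median 0.58) and 2xoff/on (median -1.46).

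Interferon-stimulated genes were lower in tumour. Type I interferons, signals of viral infection and tissue damage, induce these antiviral genes in most cells. Of 20 tested none passed (limma), 13 lay below in both tumour arrays and none above, and the median was -1.15. Isg15, a ubiquitin-like modifier, was at 1.88 and 1.80 in tumour, against 4.03 and 5.15 in inflamed FCR liver (-2.75 ± 0.53, adjusted p = 0.0968). Ifi44 was at 0.31 and -0.74 in tumour, against 2.62 and 2.27 in inflamed FCR liver (-2.67 ± 0.55, adjusted p = 0.12). Rsad2, the antiviral enzyme viperin, differed by -2.55 ± 0.58 (adjusted p = 0.158). The difference was as large on continuous NTBC, with a median of -1.32 for healthy Fah minus normal FCR liver. There Isg15 was at 0.20 in Fah and 2.78 in FCR liver, so that inflamed FCR liver was highest, and normal FCR liver exceeded both tumours. Ifi202b apart, the Ifi200 family of 6 had no further gene past the threshold, with a median of -1.36 (-2.48 within off and -0.06 within 2xoff/on, and -0.32 without the off array of inflamed FCR liver). The chemokines Cxcl9 and Cxcl10, which interferons induce, differed by -1.86 ± 0.51 and -1.50 ± 0.52 (adjusted p = 0.251 and 0.389).

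The interferon response element was searched by its core GAAANNGAA on both strands. Of the 20 genes 16 matched a promoter and 10 of these (62.5%) held the core, against 9.76% of all genes in the table. The list was made of known interferon-induced genes, so this share says nothing on why they differed here. Isg15 (chr4:156200769-156201068, minus strand) holds 3 overlapping matches in the orientation of the gene, and Ifi44 (chr3:151749861-151750160, minus strand) holds 1 in the opposite orientation; both are shown as the members with a match that differed most.
Isg15: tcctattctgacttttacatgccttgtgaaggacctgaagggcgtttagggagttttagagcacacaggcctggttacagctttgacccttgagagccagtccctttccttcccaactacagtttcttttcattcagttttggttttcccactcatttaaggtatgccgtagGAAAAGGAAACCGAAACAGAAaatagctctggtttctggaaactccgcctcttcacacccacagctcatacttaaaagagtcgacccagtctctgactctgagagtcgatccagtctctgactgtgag
Ifi44: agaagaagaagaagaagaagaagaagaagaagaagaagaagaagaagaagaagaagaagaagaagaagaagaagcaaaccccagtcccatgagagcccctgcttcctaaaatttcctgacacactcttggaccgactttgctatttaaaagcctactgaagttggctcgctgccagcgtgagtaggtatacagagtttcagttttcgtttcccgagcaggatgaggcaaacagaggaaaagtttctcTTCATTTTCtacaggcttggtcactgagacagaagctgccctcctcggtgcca

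Of 18 cytokines and prostaglandin genes 6 lay above and 3 below in both tumour arrays, with a median of 0.25, and of 27 CC and CXC chemokines 10 lay above and 9 below, with a median of 0.12. None passed, and members lay far apart in both directions. Il6, the cytokine that drives the acute phase, was at -4.29 and -4.15 in tumour, against -0.47 and -0.71 in inflamed FCR liver (-3.63 ± 0.58, limma, adjusted p = 0.0606). Ptgs2, the inducible prostaglandin synthase, was at -8.31 and -5.26 in tumour, with 1 array well above background, against -1.88 and -0.06 in inflamed FCR liver (-5.82 ± 1.09, adjusted p = 0.0902). Cxcl2, which attracts neutrophils, was at -4.71 and -4.85 in tumour, against -1.87 and -1.78 in inflamed FCR liver (-2.96 ± 0.66, adjusted p = 0.149). In each of the 3 both tumour arrays lay below both inflamed arrays, and the tumour arrays lay far apart for Ptgs2 alone. On the other side Ccl20, which attracts cells bearing CCR6, differed by 2.09 ± 0.63 and Ccl17 by 2.23 ± 0.64 (both short of the threshold). Acute phase proteins had a median of -0.28 over 19 genes, and 0.02 with quantile normalization. Without the off array of inflamed FCR liver it was -0.67 and without its 2xoff/on array 0.47, so its direction rests on single arrays.

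Further genes of myeloid and endothelial cells differed singly. Lyve1, a hyaluronan receptor of sinusoidal and lymphatic endothelium, was at -0.28 and -0.33 in tumour, against 4.19 and 2.40 in inflamed FCR liver (-3.60 ± 0.64, limma, adjusted p = 0.0785), with 18 endothelial genes showing a median of 0.03 (-0.53 without the 2xoff/on array of inflamed FCR liver). Retnlg, a resistin-like protein of neutrophils, differed by -3.17 ± 0.62 (adjusted p = 0.104), while the neutrophil list of 15 had 2 above, 2 below and a median of 0.63. That median was -0.32 without the off array of inflamed FCR liver and -0.02 without the 2xoff/on tumour. Ly6c2, a marker of inflammatory monocytes, differed by -1.85 ± 0.51 (adjusted p = 0.257). Itgax, an integrin of dendritic cells and macrophages, was at 1.47 and 1.11 in tumour, against -0.49 and -2.17 in inflamed FCR liver (2.62 ± 0.66, adjusted p = 0.207). Of 14 monocyte and scar macrophage genes 6 lay above and 3 below, with a median of 0.85, or 0.31 without the 2xoff/on array of inflamed FCR liver and 0.54 without the off tumour array.

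Genes that growth hormone sustains in male liver were lower in tumour, and 3 of them fell. Mup5, a major urinary protein, was at 0.73 and 0.30 in tumour, against 4.96 and 6.0 in inflamed FCR liver, and fell by 4.97 ± 0.51 (limma, adjusted p = 0.0115). Mup6 was at 0.36 and -1.89 in tumour, against 5.50 and 4.13 in inflamed FCR liver, and fell by 5.58 ± 0.77 (adjusted p = 0.0363). Both were higher still on continuous NTBC, between 7.55 and 8.77 in the 2 genotypes. Mup genes are near-identical copies, and the level of a single Mup gene is therefore uncertain. Mup1 and Mup4 differed by -4.86 ± 0.77 and -4.24 ± 0.75 (adjusted p = 0.0585 and 0.0785). Cyp4a12a, a male-specific fatty acid hydroxylase, was at 1.98 and 1.89 in tumour, against 5.74 and 4.80 in inflamed FCR liver, and fell by 3.33 ± 0.49 (adjusted p = 0.0427). Over the 22 tested genes of the list 14 lay below in both tumour arrays (63.6%, against 23.9% of all genes) and 1 above. The median was -0.78, or -0.38 with quantile normalization and -1.29 without the off tumour array.

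Other hepatocyte genes followed in part. Sult2a7 and Sult5a1, sulfotransferases, differed by -3.28 ± 0.58 and -3.16 ± 0.61 (limma, adjusted p = 0.0785 and 0.0968), and 10 sulfotransferases had a median of -1.07. PPAR-alpha targets and fatty acid oxidation genes had 1 fall (Cyp4a12a) among 26, 17 below and 1 above, and a median of -0.98; with quantile normalization it was -0.34. Cyp4a10, a PPAR-alpha target, was at 3.1 and 4.05 in tumour, against 7.20 and 5.62 in inflamed FCR liver (-2.84 ± 0.62, adjusted p = 0.138). Of 33 cytochrome P450 genes of families 1 to 3, none passed, 17 lay below and 1 above, and the median was -0.50 (-0.25 without the 2xoff/on array of inflamed FCR liver and -0.31 without the off tumour array). Cyp2f2, a P450 of periportal hepatocytes, was at 4.95 and 4.49 in tumour, against 7.09 and 7.43 in inflamed FCR liver (-2.54 ± 0.44, adjusted p = 0.0771). Fgf21, a hormone of stressed liver, differed by -2.85 ± 0.62 and Asns, asparagine synthetase, by -2.24 ± 0.51 (adjusted p = 0.136 and 0.159). On continuous NTBC Asns was at 2.58 in Fah and 5.08 in FCR liver, and Fgf21 at 2.14 in both. Of 20 genes of the integrated stress response 9 lay below (45%, against 23.9% of all genes). The 1 above was Nupr1 (2.03 ± 0.68, adjusted p = 0.374). Secreted hepatocyte proteins had a median of -0.22 over 15 genes, and 0.56 with quantile normalization. Of these genes 6 lay below (40%, against 23.9% of all genes) and 1 above. The median was -0.47 and 0.11 without the off and without the 2xoff/on array of inflamed FCR liver.

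Housekeeping machineries were lower in tumour as lists, with small differences that hung on the scaling. Of 32 respiratory chain subunits 24 lay below in both tumour arrays and none above, with a median of -0.79, and of 30 proteasome subunits 23 lay below and none above, with a median of -0.70. Of 27 cytosolic ribosomal proteins 16 lay below and 1 above, with a median of -0.57. No member passed (limma). Within off the 3 medians were -1.28, -1.01 and -0.94, and within 2xoff/on -0.36, -0.48 and -0.18. With quantile normalization they were -0.13, -0.17 and 0.11, so the ribosomal list turned. Without the off tumour array the ribosomal median was -0.31. Ndufa4, of the respiratory chain, was at 5.46 and 5.70 in tumour, against 7.73 and 6.31 in inflamed FCR liver. Healthy Fah and normal FCR liver were at 6.5 and 6.75. The off array of inflamed FCR liver was the highest of the 6 for this gene, as for Psmb3, a proteasome subunit, at 7.09.

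Several groups differed in opposite directions under the 2 regimens. Of all genes 61.9% had differences of the same sign in off and 2xoff/on. Differences over 1 in size agreed in sign for 701 higher and 618 lower genes. They were opposite for 79 genes higher in off and lower in 2xoff/on, and for 123 genes the other way. Cholesterol synthesis genes had medians of 0.58 within off and -1.46 within 2xoff/on over 22 genes, and lipogenic genes 0.42 and -1.29 over 16. Scd1, the desaturase that makes oleate, was at 4.58 in tumour and 1.31 in inflamed FCR liver in off, and at 3.25 in tumour and 5.89 in inflamed FCR liver in 2xoff/on. Thrsp, a regulator of lipogenesis, was at 1.17 in tumour and -0.62 in inflamed FCR liver in off, and at -0.01 and 4.34 in 2xoff/on. In both genes the 2 inflamed livers differed more from each other than the 2 tumours did.

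The medians of the Kupffer cell list lay the other way round, at -0.63 within off and 1.63 within 2xoff/on over 12 genes, and CC and CXC chemokines -0.98 and 0.85. Marco, a scavenger receptor of resident macrophages, was at 3.90 in tumour and 7.62 in inflamed FCR liver in off, and at 5.30 and 3.38 in 2xoff/on. Cd163, the haemoglobin scavenger receptor, was at -0.62 in tumour and 2.51 in inflamed FCR liver in off, and at 0.49 and -1.91 in 2xoff/on. Some other members had 1 sign in both regimens. Timd4, a receptor of resident Kupffer cells, was higher in tumour under each: it was at -0.61 in tumour and -1.11 in inflamed FCR liver in off, and at 0.11 in tumour and -5.88 in inflamed FCR liver in 2xoff/on, not well above background on that last array. For Marco, Cd163 and Timd4 the 2xoff/on array of inflamed FCR liver was the lowest of the 4. Each regimen has 1 array on each side, so these differences have no test. Monocyte and scar macrophage genes had positive medians in both regimens (0.36 and 1.07).

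**Figure D5:**
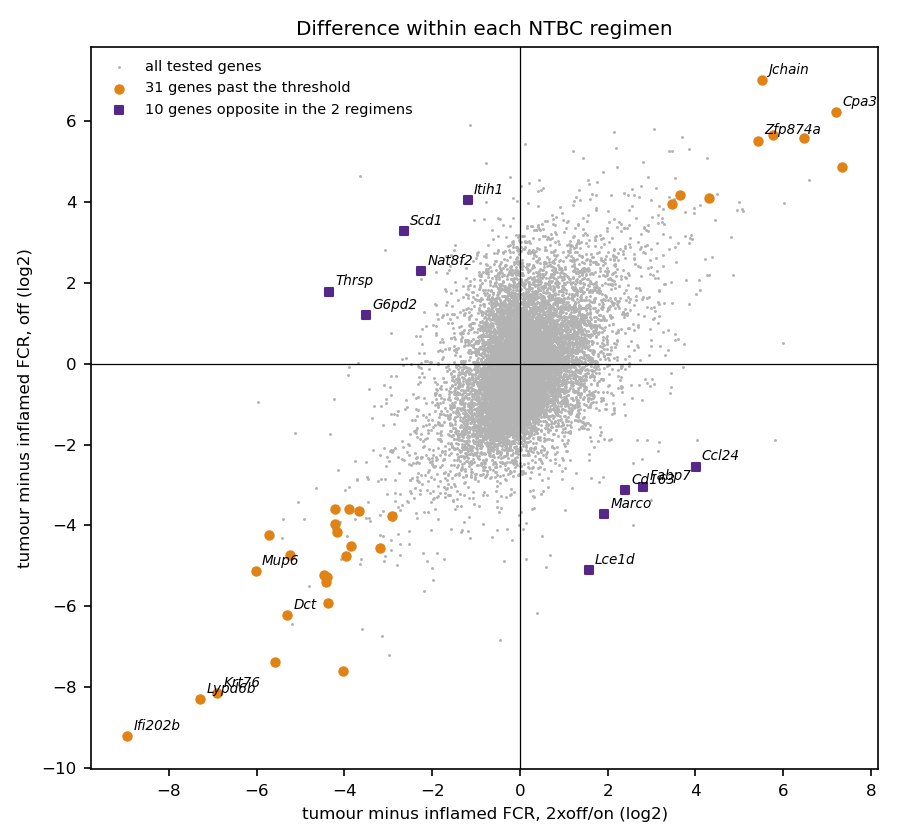
Difference between Fah tumour and FCR inflamed liver within 2xoff/on (x axis, log2) and within off (y axis, log2) for each tested gene (grey), 31 of the 32 called genes (orange) and 10 genes of opposite sign in the 2 regimens (purple squares). The called genes lie near the diagonal at both ends, and the purple genes, such as Scd1 (3.27 in off, -2.65 in 2xoff/on) and Marco (-3.71 and 1.92), in the other quadrants.

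Markers often used for liver tumours did not separate the tumours from inflamed FCR liver as a group. Afp, alpha-fetoprotein, was at 7.85 and 8.37 in tumour, against 9.24 and 8.23 in inflamed FCR liver (-0.62 ± 0.50, limma, adjusted p = 0.795), far above 1.81 in healthy Fah and 2.46 in normal FCR liver. With quantile normalization the difference was 0.16. Of 18 oncofetal and tumour markers none passed, with a median of 0.41 (0.12 without the 2xoff/on array of inflamed FCR liver). Among them 6 lay above and 5 below (33.3% and 27.8%, against 16% and 23.9% of all genes). Dlk1, an imprinted inhibitor of Notch signalling, was at 0.81 and 1.63 in tumour, against -4.17 and -1.18 in inflamed FCR liver (3.90 ± 0.92, adjusted p = 0.173). Meg3, the maternal transcript of the same imprinted cluster, was at 4.83 and 5.42 in tumour, against 1.38 and 3.11 in inflamed FCR liver (2.88 ± 0.63, adjusted p = 0.138). Tspan8, a tetraspanin, differed by 2.37 ± 0.57 (adjusted p = 0.177), and Igf2bp3, a fetal RNA-binding protein, by 1.81 ± 0.69 (adjusted p = 0.451).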

How the data were processed

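RNA from samples labelled tumour or healthy, normal or inflamed liver was hybridised to 1-colour Agilent arrays, 1 array a sample (6 in all, 4 compared here). The deposited intensity values are spot signals from Agilent Feature Extraction, version 10.7.3.1 per the file headers and 10.5 per the submitters' processing notes. The authors' own normalized log2 values, deposited with the series, served as an alternative.

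The log2 of the processed signal was centred on each array's 75th percentile. Control spots and 29 outlier or missing probes were left out, spots of a probe were averaged, and 26912 of 41145 probes were named through their accessions (14233 had no name). Each gene was represented by its brightest probe, and 15382 genes passed the filter on dim probes (well above background on at least 2 of the 6 arrays). Of these, 12 were not well above background on any of the 4 arrays compared. In all, 326 were dim on both inflamed arrays and 100 on both tumour arrays. A linear model of 4 group means over 6 arrays was fitted with limma 3.58.1 in R 4.3.3 (2 residual degrees of freedom), with Benjamini-Hochberg adjustment over all genes. The code was tested on simulated data. Fold bounds, lists and promoter matches are described where used. The sample number limits the precision.

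The gene lists and members were chosen with earlier results of these data known. Named genes are those past the threshold, the largest differences present in both regimens, up to 4 per list whose regimens share a sign, the most opposed genes, and Fah, Rag2, Il2rg and Afp. Numbers of replicates follow accession order. Across all 15382 genes the off minus 2xoff/on gaps of tumour and inflamed FCR liver correlated at r = 0.43 (genes are not independent replicates). Alternatives covered background correction, scaling, filters, blocks, probe choice and each array left out. A gene past the threshold is counted but not reported here.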

Additional observations from a re-analysis of the deposited data

Results flagged for a closer look

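Each value here is the difference between tumour and inflamed FCR liver within off, minus the same difference within 2xoff/on (log2). The items were picked because the 2 regimens gave opposite signs. Each regimen has 1 array on each side and its own slide, so the gap was not tested, and regimen and slide cannot be told apart. Higher in off and lower in 2xoff/on were Thrsp, a regulator of lipogenesis (6.13), Scd1 (5.92), Itih1, a serum hyaluronan-binding protein chain (5.24), G6pd2 (4.70) and Nat8f2 (4.54). The cholesterol synthesis list had the same order of regimens (2.05). Lower in off and higher in 2xoff/on were Lce1d, a late cornified envelope gene (-6.68), the eosinophil chemokine Ccl24 (-6.56), Fabp7, a fatty acid binding protein (-5.85), Marco (-5.63) and Cd163 (-5.53). The Kupffer cell list (-2.26) and the CC and CXC chemokines (-1.83) had that order too. For each of the 10 genes the 2 inflamed arrays lay further apart than the 2 tumour arrays: Itih1 was at 3.21 and 1.75 in tumour (off and 2xoff/on) and at -0.84 and 2.94 in inflamed FCR liver, and Ccl24 at -1.16 and 1.66 in tumour and at 1.39 and -2.35 in inflamed FCR liver.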

How the results depend on the processing

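The numbers of genes past the threshold (10 higher and 22 lower) depended on the processing, while none of the 32 genes changed sign under any alternative. The higher and lower counts were 50 and 141 with normexp background correction, 4 and 8 with quantile normalization, 29 and 56 with centring on the array median, and 3 and 8 with no filter on dim probes. With the slide as a replicate block over the 4 arrays they were 543 and 472 on 1 residual degree of freedom, all 32 genes among them, and with the regimen as a replicate block over 6 arrays 20 and 25, with 11 of the 32. The labels do not say that regimen pairs the samples beyond the shared slide. With the mean of a gene's probes 16 genes were higher, and without the trend in the variance 23. The authors' values gave 0 higher and 4 lower, and values floored at a common level gave 0 and 0 by limma, with 1404 genes at an unadjusted p under 0.05. Leaving out each array in turn gave 18 to 362 higher and 32 to 469 lower genes; the remaining array of a side was then assumed to vary like the other groups. Of 103 single genes run under each alternative, 7 turned their sign at least once, none of them past the threshold. Quantile normalization gave 0.16 for Afp, 0.23 for Krt18 and 0.28 for Krt8, and the authors' values 0.21 for Krt18 and 0.30 for Krt8. Cd79a was -0.48 with normexp and -0.0635 with floored values, and Bub1 0.70 with the mean of its probes. With each array left out in turn Bub1 ranged from -0.75 to 0.33, Cd3e from -0.70 to 0.042, Cd79a from -0.54 to 0.79 and Gclm from -1.99 to 0.23. The cause was not tested. Signals not well above background limit the folds given as bounds.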
